A study of Mus musculus with 24 samples.

Results

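Livers of newborn wild-type C57Bl/6J mice were compared between a vitamin A deficient and a vitamin A sufficient maternal diet. The comparison used 4 of the 24 arrays of the series, chosen by their labels alone: 2 of the deficient group and 2 of the sufficient group, all from the day of birth (postnatal day 0, PN0). Every dam had eaten a standard breeder diet up to embryonic day 4.5 and then one of the defined diets until the pups were taken at birth, so the diets differed only from that day of gestation. Each sample was the liver tissue of 1 litter, pooled without regard to sex, and the labels do not give the number of pups in a pool. The remaining arrays came from Cyp1b1-null newborns (4 arrays) and from weanling mice of 3 genotypes. RNA was labelled with Cy3 and hybridised to 1-colour Agilent arrays, and every level below is a log2 signal relative to the 75th percentile of its own array, so 0 marks the signal that 75% of the probes do not exceed. Differences are deficient minus sufficient on that scale, where 1 unit is a factor of 2.

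Vitamin A reaches the liver as retinyl ester or retinol, and the liver stores it as ester in stellate cells and releases it as retinol bound to retinol-binding protein. Cells oxidise retinol to retinal and retinal to retinoic acid, the hormone form, which binds the receptors of the RAR family. RARs pair with RXRs on paired hexamer sites in promoters and enhancers, and genes that clear retinoic acid, such as those of the Cyp26 family, are themselves among their targets. At birth the liver also still makes blood cells, so a liver RNA sample holds hepatocytes, erythroid precursors, macrophages, endothelial, stellate, biliary and mesothelial cells together. In such bulk samples, fewer cells of a type and less RNA per cell cannot be told apart.

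The promoters of 2 classical retinoic acid targets show the kind of site through which the receptors act. Both hold a DR5 element, that is, 2 hexamers of the form RGKTCA (R is A or G, K is G or T) in the same direction with 5 bases between them. The sequences are the 100 bases before the transcription start in RefSeq's promoter table for GRCm38.p6, written 5′ to 3′ on the strand of the gene, with the element in capitals. That of Rarb, a retinoic acid receptor gene, is chr14:16575477-16575576 on the minus strand, with the element starting 53 bases before the start site. That of Cyp26a1, which encodes a retinoic acid hydroxylase, is chr19:37697708-37697807 on the plus strand; its element starts 32 bases before the start site and reads as a direct repeat on the opposite strand.
Rarb: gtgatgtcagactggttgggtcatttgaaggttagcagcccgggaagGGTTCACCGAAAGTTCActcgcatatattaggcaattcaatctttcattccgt
Cyp26a1: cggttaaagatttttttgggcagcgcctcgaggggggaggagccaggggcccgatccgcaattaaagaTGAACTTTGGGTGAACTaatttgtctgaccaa
Over windows of 300 bases (250 before and 50 after the start site, both strands searched), DR5 was found in 32 of 32851 windows, or 0.0974%. Among the 93 genes of the retinoid lists used below, 67 had a window in the table and these 2 genes held a DR5. The related DR2 element (a spacing of 2) was in 88 windows (0.268%), and in no window of a retinoid gene. Of the genes with a DR5, 8 were tested and 5 of these were well above background on all 4 arrays. Of the 5, 3 lay higher and 2 lower in the deficient group, beside 47.3% and 52.7% of all genes above background on the 4 arrays.

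The probe for Rarb (mm9 chr14:17263511-17263570) gave 0.48 and 0.69 on the sufficient arrays and 0.50 and 0.27 on the deficient arrays. The groups overlapped, and the difference was -0.20 (SE 0.43, n = 2 against 2; adjusted p = 1, limma). A dimmer probe for Rarb gave a difference of 1.76, but only 1 of its 4 arrays was well above background, the flag that the scanner software sets on a spot that clearly exceeds its local background. Cyp26a1 was not well above background on any of the 4 arrays (-5.20 and -4.20 against -3.88 and -4.36), so its level has only an upper bound here. Scaling to the array median, described below, moves the difference of Rarb by a further -0.58. Whether either of these DR5 genes was lower on the deficient diet cannot be told from these values.

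After the exclusion of dim probes, 20532 genes were tested. The adjusted p under 0.05 that defines a call was reached by 0 of them (0%). The adjusted p of every gene named here was 1 in that fit (limma), which holds the means of all 10 groups of the series. Its estimate of spread comes from the groups with more than 1 sample. The sufficient wild-type weanlings, averaged to 1 sample, add none. At an unadjusted p under 0.05 there were 988 genes (4.81%), 917 higher and 71 lower in the deficient group (4.47% and 0.346% of the genes tested). For this reason, genes below are said to lie higher or lower, with their values, and not to have changed. The groups did not overlap, in that both deficient arrays lay above both sufficient arrays, for 5286 genes (25.7%), and lay below them for 2986 genes (14.5%). Among the 12983 genes well above background on all 4 arrays these shares were 13.7% and 19.4%. Counts of groups apart in the lists below are to be read beside these shares. The 2 arrays a group limit the precision. The p-values rest on the spread within groups over the whole series, weanling arrays included, and not only on that between these litter pools.

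The 4 arrays sat on the same slide. The signal at the 75th percentile was 232.0 and 252.1 on the sufficient arrays and 214.4 and 224.0 on the deficient arrays, and the scanner flagged between 47.5% and 58.8% of probes as clearing background. Deficient array 1 had the highest share and the lowest median correlation with the other arrays of its age (0.883, against 0.921 to 0.943 for the other three). The sufficient arrays correlated with each other at 0.98, the deficient arrays at 0.963, and arrays of opposite diets at 0.95 to 0.974. Hepatocyte genes marked the tissue as labelled: Alb lay between 10.38 and 10.50 on the 4 arrays and Afp between 10.21 and 10.31. All 9 measured hepatocyte-like markers were well above background on every array. The labels do not give the share of female pups in a pool, and the sex-linked probes differed between arrays. Xist, the RNA of the inactive X chromosome, was at 2.61 and 4.10 on the sufficient arrays, at 2.65 on deficient array 2, and not well above background on deficient array 1 (-5.21). The Y-linked gene Kdm5d was at -2.18 and -2.53 on the sufficient arrays and at -1.44 and -1.48 on the deficient arrays. The part of sex in the results was not tested.

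The median over all genes tested was 0.10, with 59.3% of genes higher in the deficient group, and it depended on the level. Genes whose mean over the 4 arrays lay between -4 and -2 had a median difference of 0.62, with 76.7% higher (5052 genes). Those between 0 and 2 had a median of -0.05 (43.4% higher, 3716 genes), and the brightest, above 4, had -0.14 (30.5% higher, 1844 genes). The lowest signal that was well above background was -3.56 to -3.15 on the 4 arrays, so the shift toward higher values lay near and below background. With quantile normalization the median of the -4 to -2 genes became 0.02. Scaling to the median of each array in place of the 75th percentile moved every difference by -0.58 and the median of all genes to -0.47, so that any difference between 0 and 0.58 changes its sign under that scaling. Genes and lists that lie lower stay lower under it, and their place relative to other genes does not move.

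The 5 retinoid lists covered uptake and storage, oxidation and reduction, breakdown and binding, receptors and partners, and response genes. Of 93 genes, 82 could be measured and 62 of these were well above background on all 4 arrays. In the deficient group 38 lay higher and 44 lower (59.3% and 40.7% of all genes tested), with groups that did not overlap for 15 and 13 of them, and the median difference was -0.04 beside 0.10 for all genes. The groups did not overlap for 25.7% and 14.5% of all genes, so the members stood near the background. None was called (0% of all genes). An unadjusted p under 0.05 (limma) was reached by 3 members that lay higher and 0 that lay lower, beside 4.47% and 0.346% of all genes tested. Of the members well above background on all 4 arrays, 12 of 15 genes of uptake and storage and 15 of 23 of oxidation and reduction lay lower.

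Among genes of uptake, storage and transport, 12 of 16 measured lay lower and 4 higher (median -0.24; groups apart for 5 and 2). Retsat, which saturates retinol to dihydroretinol, had the largest difference below 0 in the list. Its levels were 4.09 and 3.08 on the sufficient arrays and 2.76 and 1.85 on the deficient arrays (mm9 chr6:72556656-72556715). Both deficient arrays lay below both sufficient ones, with a difference of -1.28 (SE 1.19). Ces1d, a carboxylesterase with retinyl ester hydrolase activity, gave 4.92 and 5.15 against 4.38 and 3.78, a difference of -0.95 (SE 1.07). Its groups did not overlap either, and in the fit without 2 weanling arrays its adjusted p was 0.0628 (limma). Rbp4, the carrier that takes retinol out of the liver, was at 10.32 and 10.11 against 10.09 and 9.82. The deficient arrays were the lower ones, and the gap of -0.26 was small beside its SE of 0.85. Bco1, which cleaves beta-carotene into retinal, gave 0.61 and 0.67 against 0.36 and -0.11 (-0.52, SE 0.58). Scarb1, the scavenger receptor that takes up carotenoids and HDL lipid, gave 5.24 and 4.98 against 4.66 and 4.71 (-0.42, SE 0.91). Both were lower on each deficient array than on either sufficient array. Lrat, the enzyme that esterifies retinol for storage, overlapped between groups at -2.73 and -1.77 against -2.02 and -2.26 (difference 0.11, and -0.15 for its other probe). Stra6, the membrane receptor for retinol-binding protein, was at 0.20 and 0.26 against 0.94 and -0.57, where the deficient arrays lay on either side of the sufficient ones. Lipe, hormone-sensitive lipase, went the other way with -1.90 and -2.17 against -0.61 and -1.44 (1.01, SE 0.53).

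In the list of retinol and retinal oxidation and reduction, 16 of 26 measured genes lay lower and 10 higher (median -0.21, groups apart for 4 each way; the median was 0.01 without sufficient array 1). Rdh7, a retinol dehydrogenase of liver, was at 6.58 and 6.74 on the sufficient arrays and 6.18 and 5.94 on the deficient ones (-0.59, SE 0.99). Rdh10, the main retinol dehydrogenase of the embryo, gave 0.95 and 0.74 against 0.12 and 0.55 (-0.51, SE 0.96). Dhrs3, which reduces retinal back to retinol and is induced by retinoic acid, gave 4.52 and 4.25 against 4.13 and 3.83 (-0.41, SE 0.92). In all 3 genes the deficient arrays were the lower ones. The retinaldehyde dehydrogenases, which make retinoic acid, did not go one way. Aldh1a1, the form of adult liver, gave 1.96 and 1.43 against 1.41 and 0.95 (-0.52, SE 1.01). Aldh1a2, the form of embryonic mesoderm and mesothelium, gave -2.33 and -1.91 against -0.77 and -1.43 (1.02, SE 0.74), and Aldh1a3 gave -1.10 and -1.10 against -0.82 and -0.60 (0.39, SE 0.63). Adh1, the abundant alcohol dehydrogenase of hepatocytes, overlapped between groups at 7.62 and 6.91 against 7.14 and 6.56.

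For breakdown and binding of retinoic acid, 9 of 11 genes were measured but 3 were well above background on all 4 arrays, Cyp26b1, Cyp2c39 and Cyp3a11. Cyp2c39, a P450 that hydroxylates retinoic acid, gave -0.06 and -1.65 on the sufficient arrays and -2.00 and -2.73 on the deficient arrays (mm9 chr19:39642568-39642627). The groups did not overlap and differed by -1.51 (SE 0.80). Cyp26b1, a retinoic acid hydroxylase like Cyp26a1, was at 0.52 and 1.05 against 1.15 and -1.07, a difference of -0.74 (SE 0.91) that rests on deficient array 2. Cyp3a11 overlapped between groups (3.76 and 3.34 against 2.75 and 3.45). Cyp1b1, the P450 deleted in the other newborn genotype, was near or below background: one probe was not well above it on any of the 4 wild-type arrays (-4.99 and -4.32 against -2.91 and -3.61), and the other was on deficient array 1 alone (-5.18 and -4.98 against -1.89 and -3.17).

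Of the receptors and partners 15 of 17 were measured, 7 higher and 8 lower, with a median of -0.04. Rxra, the main RXR of liver, was at 5.23 and 4.39 against 4.43 and 4.67, overlapping between groups (-0.26, SE 0.75). The corepressor Ncor1 differed by -0.10, and the coactivators Ncoa1, Ncoa2 and Ncoa3 by -0.04, 0.03 and 0.08. Rara was not well above background on any array. The probes for Rarg disagreed. The only one that was well above background on all 4 arrays gave -2.91 and -2.95 against -2.97 and -2.83, a difference of 0.03. The probe that stands for the gene in the fit, chosen on its mean over the whole series, gave -5.32 and -4.10 on the sufficient arrays, where neither was well above background, and -1.50 and -2.83 on the deficient arrays, where both were. With the probes averaged, Rarg differed by 0.77. Through the probe with the gap, it was the 1 retinoid gene called in the fit without 2 weanling arrays described below (adjusted p = 0.0195, and 0.132 there after quantile normalization).

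Retinoic acid response genes lay higher for 15 of 24 measured and lower for 9, with a median of 0.14 beside 0.10 for all genes (-0.44 with scaling to the array median). Tgm2, transglutaminase 2, a classical retinoic acid target, gave 4.79 and 5.49 against 4.80 and 5.28 and overlapped between groups. The homeobox partner Meis2 and the zinc-finger gene Tshz1 differed by 0.23 and 0.15, both within the range that array-median scaling turns; a dim second probe for Tshz1, above background on 1 array, gave 1.77. Meis1, a further partner, differed by 1.04 (-2.41 and -2.24 against -0.60 and -1.97, SE 0.76), and by 0.27 on its other probe. Hoxb4 was below background in the sufficient group (-3.83 and -3.60) and well above it in the deficient group (-1.65 on both arrays). The difference was at least 3.31-fold on the scale used here. This and later "at least" folds of genes that lay higher are smaller with scaling to the array median. Fgf21, a liver hormone induced by fasting and by retinoic acid, gave -1.57 and -0.57 against 1.64 and -0.31 (mm9 chr7:52869305-52869364). Its groups did not overlap, but deficient array 1 alone carried most of the difference of 1.73 (SE 1.95).

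**Figure D1:**
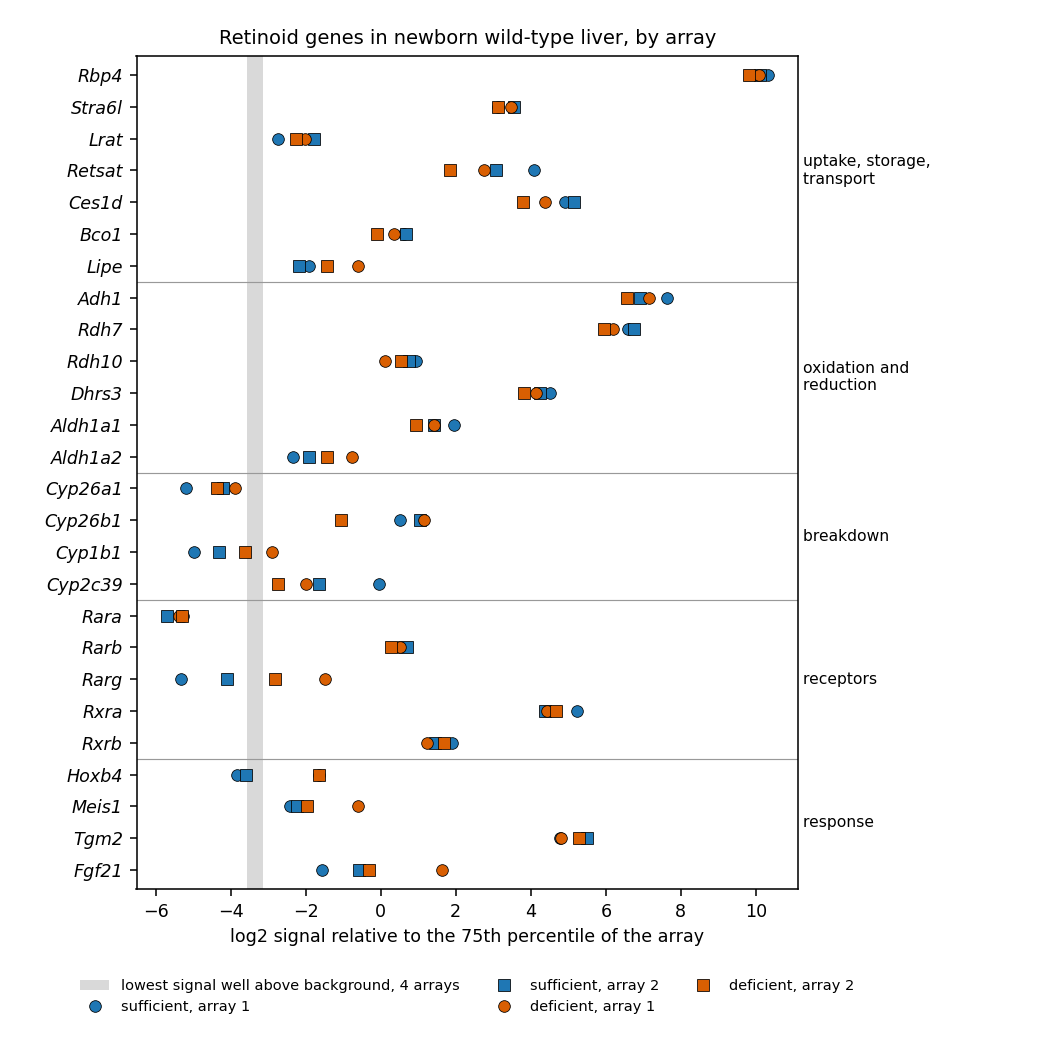
Log2 signal relative to the 75th percentile of the array (x axis) of retinoid genes, 1 marker per array, blue for sufficient and orange for deficient; the grey band spans the lowest signals well above background. Retsat, Ces1d, Rdh7, Dhrs3 and Cyp2c39 have both deficient arrays to the left of both sufficient arrays, Rarb and Rxra overlap, and Cyp26a1 and the plotted probe of Cyp1b1 were not well above background on any array. Scaling to the array median would move both deficient markers of every gene left by the same amount, which turns small differences to the right, such as that of Lrat, to the left.

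In a fit without 2 weanling arrays that correlated poorly with the others of their age (median correlations of 0.495 and 0.781), 629 genes (3.06%) were called, 614 higher (2.99%) and 15 lower (0.0731%). Of the 614, no sufficient array was well above background for 586, and all 4 arrays were well above background for 13. Of the 15, no deficient array was above background for 14. Without the replicates of the comparison 1 at a time, this count went from 69 (without sufficient array 2) to 71 (without deficient array 1), 221 (without sufficient array 1) and 1493 (without deficient array 2). The same fit after quantile normalization called 115 higher (0.56%) and 59 lower (0.287%), and 106 of the 115 were among the 614.

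Rgl3 encodes a RalGDS-like guanine nucleotide exchange factor. It had the smallest p among higher genes with groups apart that were above background on all 4 arrays. It gave -2.84 and -2.69 on the sufficient arrays and -0.84 and -1.73 on the deficient arrays (mm9 chr9:21776317-21776376; difference 1.48, SE 0.38). In the fit without the 2 weanling arrays its adjusted p was 0.0149, and 0.0449 there after quantile normalization. Arfgef3, a member of the family of Arf exchange factors, gave -2.42 and -2.00 against -0.88 and -1.02 (1.26, SE 0.63; adjusted p = 0.0175 in that fit). Sox12, a SoxC transcription factor, gave -2.78 and -3.02 against -1.48 and -1.45 (1.44, SE 0.59; adjusted p = 0.0364 in that fit). For each of these genes the replicates lay closer to each other than to the opposite diet. Actg2, the gamma actin of smooth muscle, passed in that fit as well (-1.82 and -1.37 against -0.40 and -0.45; adjusted p = 0.0448). Dpep1, a membrane dipeptidase, Klk10, a kallikrein-related peptidase, Elmo2, an engulfment adaptor, and Slc22a16, a carnitine transporter, did so with differences of 1.17, 1.11, 1.09 and 1.19. The probes for Elmo2 disagreed. Another one, brighter on these arrays and well above background on all 4, gave -0.61 and -0.82 against -1.20 and -1.50. Its difference was -0.64, with groups apart, so the direction of Elmo2 is not settled.

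Further higher genes were among the 12 with the smallest p in the fit of all groups. Anxa8, an annexin that binds phospholipid in the presence of calcium, gave -1.66 and -2.22 against -0.41 and 0.20 (1.83, SE 0.60). Il34, a ligand of the macrophage receptor Csf1r, gave -1.70 and -2.44 against -0.67 and -0.90 (1.29, SE 0.45). Cyp2s1, a P450 of epithelia outside the liver, gave -0.71 and -0.83 against 0.43 and 0.96 (1.46, SE 0.52). Groups that did not overlap were a condition for choosing all 3, and none was called in either fit. Ppp1r14a, an inhibitor of myosin phosphatase, Ptpn13, a tyrosine phosphatase, and Cdh13, a cadherin without a cytoplasmic tail, lay higher by 1.34, 1.20 and 1.17.

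Among the genes that lay lower, the leading ones included several liver enzymes. Ugt2b36, a UDP-glucuronosyltransferase, was the lower gene above background on all 4 arrays that was called without the 2 weanling arrays (adjusted p = 0.0218). Its levels were 2.92 and 2.34 on the sufficient arrays and 1.67 and 0.67 on the deficient arrays (-1.46, SE 1.06), and its paralog Ugt2b37, which a probe may share signal with, gave -0.75. After quantile normalization in that fit the adjusted p of Ugt2b36 was 0.0817. Inmt, an N-methyltransferase of indolamines, gave 3.41 and 4.52 against 3.06 and -0.28, so most of its difference of -2.57 (SE 1.15) came from deficient array 2. Cyp2c37, a P450 of the same cluster as Cyp2c39, gave 5.49 and 4.11 against 4.06 and 2.01 (-1.77, SE 0.92). Cyp2e1, the ethanol-inducible P450, gave 5.72 and 5.32 against 4.62 and 4.64 (-0.89, SE 0.87). All of these were chosen among genes with both deficient arrays below both sufficient arrays.

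The phosphatidylcholine genes Pemt, which makes it by methylation, and Pctp, which carries it between membranes, lay lower by -0.81 (6.63 and 6.13 against 5.73 and 5.41) and -1.15 (3.31 and 2.99 against 2.29 and 1.70). Apoa2, a protein of HDL, gave 8.25 and 7.87 against 7.38 and 6.96 (-0.89, SE 1.18). Got2, the mitochondrial aspartate aminotransferase, gave 6.44 and 6.06 against 5.49 and 5.50 (-0.75, SE 0.96). Rnase4, a secreted ribonuclease, gave 3.80 and 3.63 against 2.95 and 2.71 (-0.88, SE 0.92). The 5 genes were chosen among those with groups apart, and their adjusted p-values were 0.0671 to 0.0875 (limma) without the 2 weanling arrays. Pars2, the mitochondrial prolyl-tRNA synthetase, was close between replicates at -1.68 and -1.80 against -2.87 and -2.89 (-1.14, SE 0.63).

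Of 28 measured genes of adult hepatocytes, 22 lay lower and 6 higher, with a median of -0.40. Groups were apart for 7 below and 1 above, beside 14.5% and 25.7% of all genes tested. Sufficient array 1 stood highest for this list (its median deviation from each gene's mean of the 4 arrays was 0.40, against -0.03, -0.18 and -0.05 for sufficient array 2 and the deficient arrays). Without that array the list's median was -0.04. Members of the urea cycle did not share a pattern. Cps1, the entry enzyme, gave 7.12 and 5.15 against 5.42 and 6.87, and Ass1, argininosuccinate synthase, 7.83 and 4.79 against 5.09 and 6.42. In both, the high arrays were sufficient 1 and deficient 2. Otc, ornithine transcarbamylase, was close within diets and lower on the deficient arrays, at 3.46 and 3.35 against 3.03 and 2.82 (-0.48). Hepatocyte transcription factors had a median of -0.05.

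Genes of oxidative phosphorylation shared a sign. Of the nuclear genes of respiratory complexes and ATP synthase, 75 of 76 were measured and all 75 lay lower in the deficient group, with groups apart for 28, beside 19.4% apart below among all genes above background on the 4 arrays (37 complex I genes, 14 of complexes II and III, and 24 of complexes IV and V). The genes are bright, and of all genes above a level of 4, 30.5% lay higher. The median was -0.40, and it was -0.16 with 9 genes higher after quantile normalization, which left the direction of the list and reduced its size. Cox7c, a subunit of cytochrome oxidase, gave 2.09 and 1.03 against 0.53 and 0.64 (-0.97). Ndufs8 of complex I differed by -0.91, Cyc1, cytochrome c1 of complex III, by -0.76, and Atp5k of ATP synthase by -0.77. The shared sign did not spread evenly over the arrays: the list's median deviation was 0.52 on sufficient array 1 and -0.12, -0.13 and -0.31 on the others, and without sufficient array 1 the median difference was -0.07. Cytosolic ribosomal protein genes went the same way at a smaller size, with 28 of 30 lower, groups apart for 13, and a median of -0.18. That median was -0.02 without sufficient array 1, and -0.06 with 12 genes higher after quantile normalization.

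**Figure D2:**
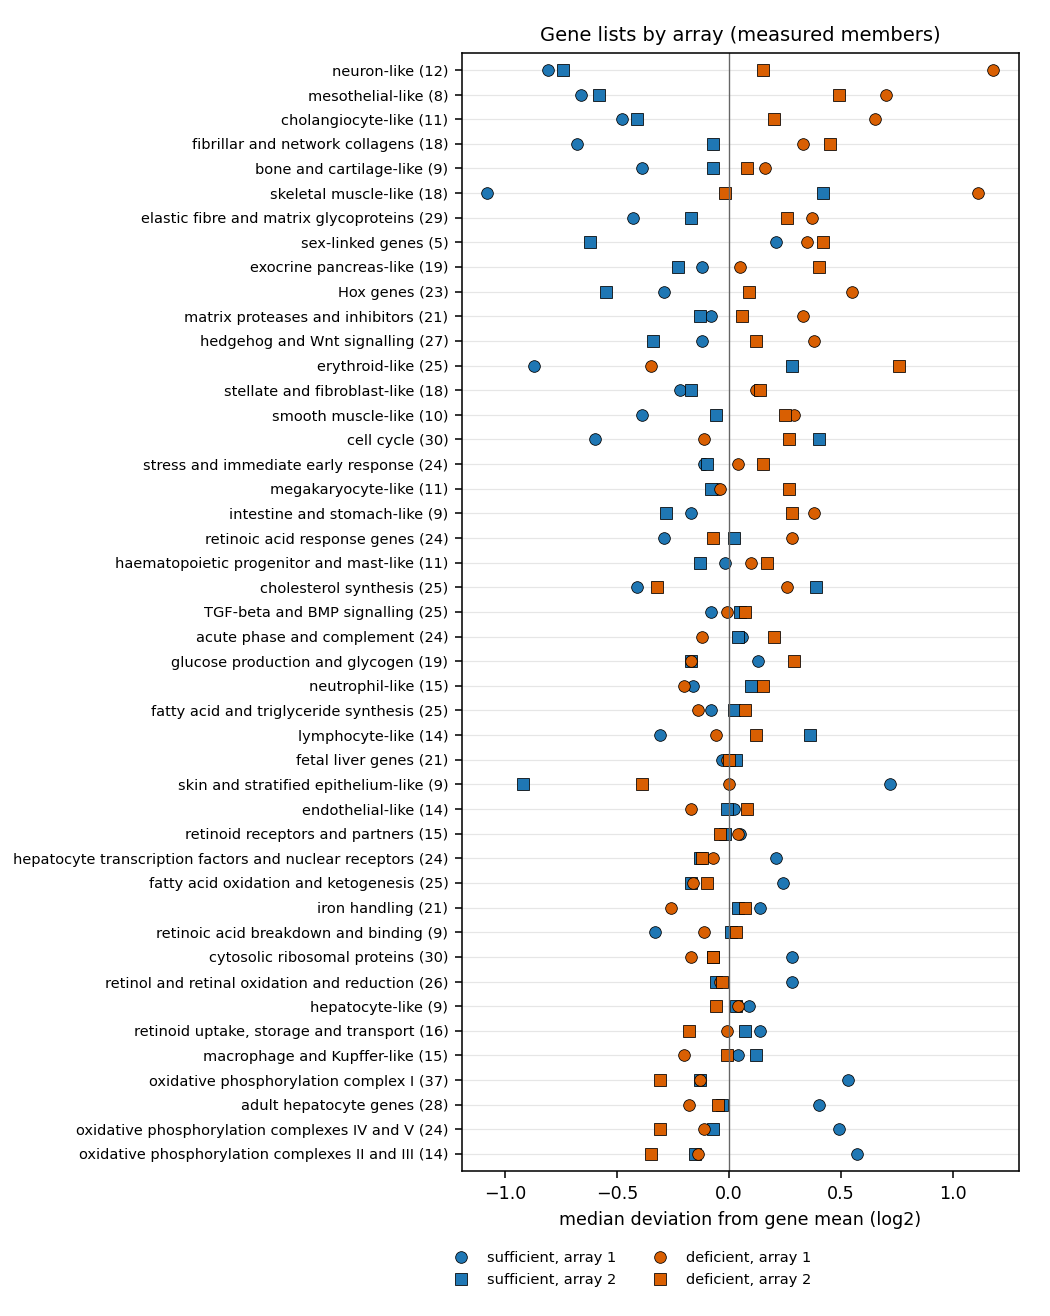
For each gene list (number of measured members in brackets) the x axis gives the median over members of log2 signal minus the gene's mean of the 4 arrays, with 1 marker per array. Mesothelial-like, biliary and matrix lists have both deficient arrays to the right of both sufficient arrays, the oxidative phosphorylation lists have sufficient array 1 far to the right, and the erythroid list has array 2 of each diet to the right of array 1. Scaling to the array median shifts deficient against sufficient markers by -0.58 in every list, which turns the erythroid, stellate, smooth muscle, Hox and cell cycle medians below 0.

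Extracellular matrix genes lay higher as a group. Over the lists of collagens, elastic fibre and other matrix glycoproteins, and matrix proteases with their inhibitors, 68 of 69 genes were measured: 57 lay higher and 11 lower, the groups were apart for 40 and 3, and the median was 0.67. Restricted to the 48 that were well above background on all 4 arrays, 39 lay higher (47.3% of all such genes did), the groups were apart for 26 above and 1 below, and the median was 0.55, beside -0.02 for all such genes. The median was 0.45 with quantile normalization, 0.20 with normexp background correction, and 0.09 with scaling to the array median, under which the separate median of the proteases and inhibitors turned from 0.46 to -0.12 (0.12 over its members above background on all 4 arrays).

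Collagens had a median of 0.89, with 15 of 18 higher; it was 0.57 without sufficient array 1 and 0.34 with normexp. Col1a1, the main chain of fibrillar type I collagen, was at 1.07 and 2.35 on the sufficient arrays and 3.66 and 3.38 on the deficient arrays (mm9 chr11:94813075-94813134). The groups did not overlap; the difference was 1.81 (SE 1.07), and 1.44 to 1.81 over its 3 probes. Its partner chain Col1a2 gave 3.72 and 4.65 against 5.61 and 5.23 (1.23), and Col3a1, the type III chain, 2.64 and 4.10 against 4.90 and 4.58 (1.38). In all 3 genes sufficient array 1 was the lowest. The basement membrane collagens Col4a1 and Col18a1 differed by -0.13 and -0.18.

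Elastic fibre genes and glycoproteins lay higher for 26 of 29 (median 0.72, groups apart for 17 and 0). Eln, elastin, was at -2.97 and -4.07 on the sufficient arrays and -1.14 and -1.91 on the deficient arrays (1.99, at least 3.34-fold). Mfap4, a microfibril-associated protein, gave -1.45 and 0.03 against 0.85 and 0.85 (1.56), and Fbln2, fibulin 2, gave 0.88 and 1.08 against 2.52 and 1.76 (1.16). Lum, the small proteoglycan lumican that binds collagen fibrils, gave 0.75 and 1.73 against 2.36 and 2.58 (1.23). The groups were apart in all 4. Not every matrix gene shared this: Fn1, fibronectin, differed by -0.11, Sparc by -0.02 and Dcn, decorin, by 0.24. The other probe for Sparc, well above background on all 4 arrays, gave 0.47 with groups apart. Timp1, an inhibitor of matrix proteases, gave -0.41 and 0.37 against 0.84 and 0.94 (0.91). Mmp13, a collagenase, was not well above background on any array (-5.19 and -5.33 against -3.10 and -3.34), although it was among the genes called without the 2 weanling arrays (adjusted p = 0.00211).

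Markers of mesothelial, biliary and mesenchymal cells of liver stood beside the matrix genes to different degrees. All 8 measured mesothelial-like markers lay higher, with groups apart for 6 and a median of 1.19 (0.61 with scaling to the array median). With quantile normalization 6 of the 8 lay higher (median 0.87), and with normexp the median was 0.39. Msln, mesothelin, was at 1.58 and 1.57 on the sufficient arrays and 2.80 and 3.03 on the deficient arrays (mm9 chr17:25885569-25885628; 1.34, SE 0.52). Wt1, a transcription factor of mesothelium, gave -2.90 and -2.79 against -1.0 and -2.05 (1.32, SE 0.69), and Rspo1 gave -0.06 and -0.14 against 0.55 and 0.83 (0.79, SE 0.51). In each the sufficient arrays almost coincided and both deficient arrays lay above them. The summed linear level of the list, which Msln dominates, is in multiples of the 75th percentile. It was 4.75 and 4.78 on the sufficient arrays and up to 11.4 on the deficient arrays, and the groups were apart. Upk3b and Lrrn4 were below background on every array.

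Cholangiocyte-like markers lay higher for 9 of 11 (groups apart for 6, median 1.05). Over the 6 that were well above background on all 4 arrays the median was 0.19, with 4 higher and 2 lower, and groups apart for 2. Krt7, a keratin of bile duct epithelium, gave 0.67 and 0.57 against 1.80 and 1.55 (1.06, SE 0.58). Krt19, which mesothelium also expresses and which is in both lists, gave -1.21 and -0.95 against 0.45 and -0.51 (1.05, SE 0.62). Epcam, an adhesion protein of biliary and progenitor cells, was below background on the sufficient arrays (-3.79 and -3.81) and at -1.03 and -2.84 on the deficient ones, well above it on the first of these (at least 2.72-fold). Other biliary genes overlapped between groups: Sox9 differed by -0.23 (0.11 and 3.15 on its other probes, the latter below background in the sufficient group) and Spp1 by 0.25. The summed level of the list, which Aqp1 dominates, overlapped as well (58.2 and 83.0 against 62.9 and 80.7).

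Stellate and fibroblast-like markers lay higher for 13 of 18 (groups apart for 8 and 1, median 0.29, or -0.29 with scaling to the array median, so the direction of this list is not settled). Lrat and Dcn, noted above, overlapped or nearly so between diets. Smooth muscle-like markers had a median of 0.29 with 7 of 10 higher, which array-median scaling also turned to -0.29. Actg2 differed by 1.17. Acta2, the smooth muscle alpha actin, differed by 0.00 on the probe that stands for it. Another probe above background on all 4 arrays gave 0.70 with overlapping groups (-0.07 and 0.97 against 0.72 and 1.58), and dimmer ones gave 1.12 and 0.82. The part of these cell types in the matrix result was not tested.

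**Figure D3:**
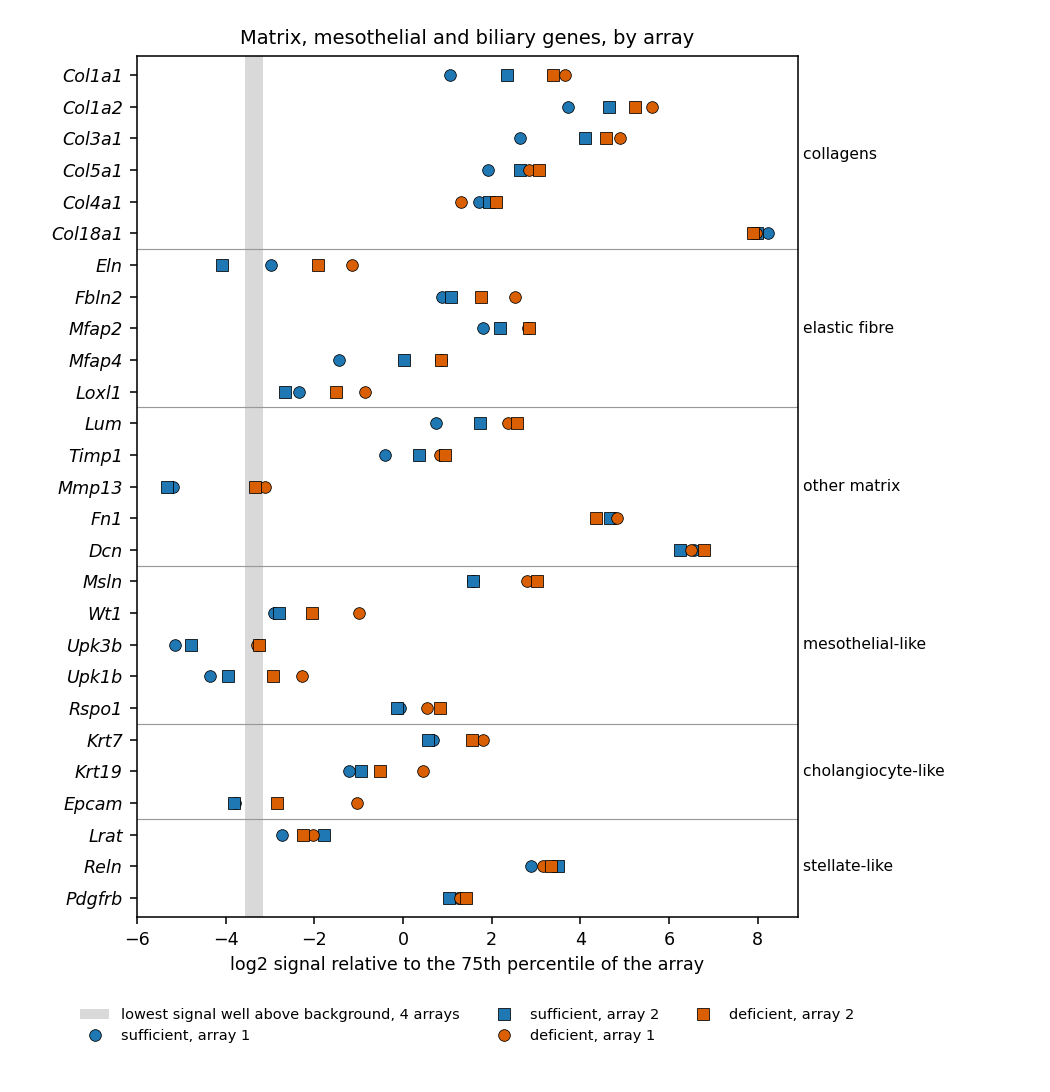
Log2 signal relative to the 75th percentile of the array (x axis) of matrix and marker genes, 1 marker per array, blue for sufficient and orange for deficient, grouped by list; the grey band spans the lowest signals well above background. Col1a1, Eln, Fbln2, Lum, Msln, Wt1 and Krt7 have both deficient arrays to the right, while Col4a1, Col18a1, Fn1 and Lrat do not; the small differences of Dcn and Pdgfrb to the right turn to the left with scaling to the array median.

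Blood lineages varied mainly between replicates. All 25 measured erythroid-like markers lay higher (median 0.44), yet the groups were apart for none of them. The list's median deviation was -0.87 and 0.28 on the sufficient arrays and -0.35 and 0.76 on the deficient arrays. Slc4a1, the band 3 anion exchanger of red cells, showed this with 5.88 and 7.38 against 6.61 and 8.36. Sufficient array 2 and deficient array 2 were the high ones within their diets. Without deficient array 2 the list's median was -0.10, and with scaling to the array median it was -0.13. The 30 cell cycle genes, with a median of 0.24 that turned to -0.34 under that scaling, had the same kind of spread, with deviations of -0.60 and 0.40 against -0.11 and 0.27, and groups apart for none.

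Macrophage and Kupffer-like markers lay lower for 14 of 15, with groups apart for 4 and a median of -0.31. Of all genes above background on the 4 arrays, 52.7% lay lower and 19.4% had groups apart below. Csf1r, the receptor of CSF1 and IL-34, gave 3.38 and 3.23 against 2.94 and 2.90 (-0.39, SE 0.78). Its dimmer probes, also well above background on all 4 arrays, went the other way, by 0.71 and 0.13, with groups apart. Vsig4, a complement receptor of Kupffer cells, gave 1.11 and 0.72 against 0.64 and 0.13 (-0.54, SE 0.38), and Clec4f, a lectin that marks Kupffer cells, 3.86 and 3.98 against 3.70 and 3.84 (-0.15, SE 0.75). On the probes that stand for these genes in the fit, all 3 were lower on both deficient arrays. The summed level of the list was 498 and 558 on the sufficient arrays and 434 and 470 on the deficient arrays. Megakaryocyte-like markers lay higher for 9 of 11 (median 0.22, or -0.36 with scaling to the array median). Their groups were apart for 6, beside 13.7% apart above among all genes above background on the 4 arrays. Pf4, platelet factor 4, gave 6.89 and 6.70 against 7.0 and 7.26 (0.34, SE 0.61). Neutrophil, lymphocyte and endothelial markers had medians of 0.03, 0.00 and -0.01.

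Fuel metabolism gave small differences. The medians, whose signs above 0 all turn under array-median scaling, were 0.02 for fatty acid and triglyceride synthesis, 0.12 for cholesterol synthesis, -0.07 for fatty acid oxidation and ketogenesis and 0.04 for glucose production and glycogen. Fasn, fatty acid synthase, overlapped between groups (4.21 and 5.13 against 4.78 and 4.30), as did Srebf1, a transcription factor of lipogenesis (4.86 and 5.42 against 5.06 and 4.73). Thrsp, a lipogenic nuclear protein, stood out of that list with -2.47 and -1.69 against 0.84 and -0.94 (2.03, SE 1.44), again highest on deficient array 1. Fetal liver genes had a median of 0.00, and within them Igf2, a fetal growth factor, gave 9.09 and 8.57 against 8.43 and 8.08 (-0.58, SE 0.59) and its neighbour H19, an imprinted RNA, 8.44 and 8.04 against 7.48 and 7.83 (-0.59, SE 1.36). Dlk1, an imprinted gene of fetal hepatoblasts, lay higher (4.82 and 5.14 against 5.33 and 6.07, difference 0.72, SE 0.78).

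Genes of iron handling had a median of -0.14 (0.01 without deficient array 1). Hamp, the gene of hepcidin, the hormone that limits iron export, was at 7.05 and 6.96 on the sufficient arrays and 6.01 and 5.07 on the deficient arrays (mm9 chr7:31727490-31727549; -1.47, SE 1.68). Tmprss6, a membrane protease that restrains hepcidin, gave 6.52 and 6.07 against 5.79 and 5.29 (-0.75, SE 0.88), and Tfr2, transferrin receptor 2, 7.03 and 6.69 against 6.64 and 6.00 (-0.53, SE 0.83). The groups did not overlap in these 3 genes. Hfe, the hemochromatosis gene, overlapped between groups (2.93 and 2.71 against 2.33 and 2.87). Tfrc, transferrin receptor 1, and Slc40a1, the iron exporter ferroportin, overlapped (differences 0.13 and 0.02).

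Many genes of low signal lay higher in the deficient group. Of the Hox genes, which pattern the body axis and respond to retinoic acid in the embryo, 23 of 31 were measured and 22 lay higher, with groups apart for 14 (25.7% of all genes). Of all genes at levels between -4 and -2, 76.7% lay higher. The number of them well above background was 6 and 9 on the sufficient arrays and 16 and 13 on the deficient arrays, and 5 were above it on all 4. The median was 0.54, and -0.04 with scaling to the array median; with quantile normalization it was 0.19 and 12 of the 23 lay higher. Of those above background on all 4 arrays, Hoxb6 gave 0.21 and 0.51 against 0.49 and 0.77 (0.27), Hoxa3 -1.56 and -1.87 against -1.77 and -1.18 (0.24), and Hoxb5 -1.47 and -2.17 against -2.03 and -2.20 (-0.30), and all 3 overlapped between groups. Hoxa7 and Hoxd9 did not overlap, with -2.01 and -1.95 against -1.55 and -1.86 (0.27) and -2.63 and -3.28 against -2.26 and -1.96 (0.85).

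Genes foreign to liver showed differences of the same kind. Neuron-like markers lay higher for 10 of 12 (median 1.40), with 2 above background on all 4 arrays; of these Elavl3, an RNA-binding protein of neurons, gave -2.96 and -2.57 against -1.27 and -1.93, and Tubb3, a neuronal tubulin, overlapped. Skeletal muscle-like markers had a median of 0.74 and summed levels of 3.71 and 29.4 against 19.4 and 5.66, so they were high on sufficient array 2 and deficient array 1. Krt5, a keratin of stratified epithelium, was above background on sufficient array 1 alone (1.30, against -3.93, -5.43 and -3.95). Runx2, a transcription factor of bone, gave -5.00 and -5.51 against -2.15 and -2.52 and was well above background on both deficient arrays (at least 2.06-fold; adjusted p = 0.00277 without the 2 weanling arrays and 0.00101 there after quantile normalization). Another Runx2 probe, above background on 1 array, gave 2.79, and a last one, above background on none, -0.02.

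Stress and immediate early genes had a median of 0.23 (-0.34 with scaling to the array median), with groups apart for 10 above and 3 below. Fos was in most of its spots not well above background on the sufficient arrays (-3.38 and -3.76) and was so on the deficient arrays (-1.58 and -2.23, at least 2.77-fold). Gadd45b, a stress-induced growth arrest gene, gave 1.77 and 1.43 against 1.95 and 3.45 (1.11, SE 0.70). The chaperone Hspa5 and the transcription factor Xbp1, both of the unfolded protein response, lay lower, with 7.63 and 6.80 against 6.71 and 6.20 (-0.76, SE 1.21) and 0.79 and 0.57 against -0.07 and -0.10 (-0.77, SE 1.20).

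The same diets were compared at birth in Cyp1b1-null mice, which lack a P450 that metabolises retinoids and steroids, with 2 litter pools a group and no array in common with the wild type. The arrays of the null sat on another slide, so slide and genotype cannot be told apart. The difference between the diet effects passed the threshold for 0 of 20532 genes (0%; limma, adjusted p = 1 for every gene named here), and 332 genes (1.62%) had an unadjusted p under 0.05. Without the 2 weanling arrays 10 genes (0.0487%) were called, among them Runx2 (adjusted p = 0.0377; diet differences of 2.92 in the wild type and -0.36 in the null), but this count was 4, 2, 0 and 348 when sufficient arrays 1 and 2 and deficient arrays 1 and 2 of the wild type were left out in turn. Of genes above background on all 4 wild-type arrays, Rgl3 differed by 1.48 in the wild type and -0.32 in the null, and the difference between these was 1.80 (SE 0.54).

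Medians of collagens and elastic fibre genes stood on opposite sides of 0 in the 2 genotypes, but the null arrays overlapped between diets. The median deviations of collagens were -0.09 and 0.49 on the null sufficient arrays against -0.74 and 0.33 on the null deficient arrays, and those of elastic fibre genes -0.10 and 0.23 against -0.63 and 0.46. With scaling to the array median, which moved differences in the null by 0.10, they still did (0.31 and -0.28 for collagens, 0.15 and -0.04 for elastic fibre genes). As measured, collagens had a median of 0.89 in the wild type and -0.39 in the null, where 3 of 18 lay higher beside 49.4% of all genes, and Col1a1 gave 2.84 and 3.98 on the null sufficient arrays and 1.83 and 3.28 on the null deficient arrays (-0.86). Col1a1 was thus lowest on sufficient array 1 in the wild type and on a deficient array in the null. Mesothelial-like markers had medians of 1.19 and 0.05, and cholangiocyte-like markers 1.05 and -0.06 (0.47 and 0.04 with scaling to the array median). Skeletal muscle-like and exocrine pancreas-like markers had medians of -2.85 and -2.19 in the null, where array 2 of the sufficient group stood apart. The summed level of the muscle-like markers was 1160 on that array and 7.87, 3.89 and 82.6 on the other null arrays, and that of the pancreas-like markers was 99.5 on it and 6.85 to 7.28 on the others. In the wild type the muscle-like median of 0.74 was 0.01 without sufficient array 1, and 0.06 over members above background on all 4 arrays. Retinoid genes had medians of -0.04 and 0.01, and Retsat differed by -1.28 and -0.26, Ces1d by -0.95 and 0.24, Dhrs3 by -0.41 and 0.10, and Rarb by -0.20 and -0.04. Oxidative phosphorylation genes had medians of -0.40 and -0.22. In the null their deviations were 0.20 and 0.01 on the sufficient arrays against 0.23 and -0.46 on the deficient arrays, so that value rests on deficient array 2 of the null, as the wild-type value rests on sufficient array 1. Hamp differed by -1.47 and 1.72; the difference between these was -3.19 (SE 2.38).

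**Figure D4:**
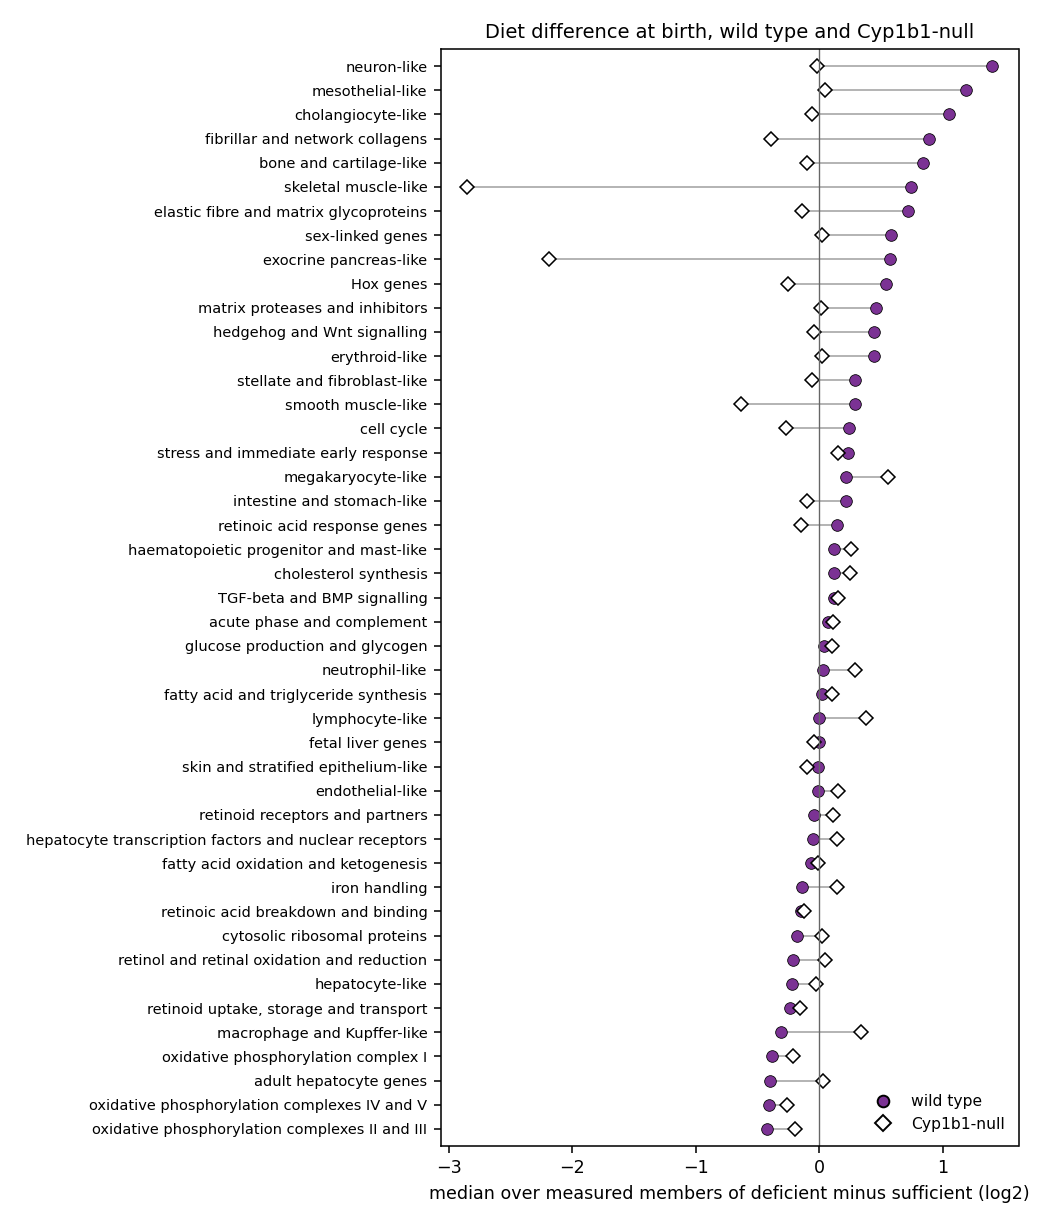
Median over the measured members of each list of the difference deficient minus sufficient (x axis, log2) at birth, filled circles for the wild type and open diamonds for the Cyp1b1-null, 2 arrays a group. Collagens, Hox genes and muscle-like markers stand to the right of 0 in the wild type and to the left in the null, macrophage-like markers the reverse; with scaling to the array median in the wild type, lists with medians under 0.58, such as Hox genes and matrix proteases, move to the left of 0.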

How the data were processed

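Liver RNA of 4 litter pools was read on Agilent 1-colour arrays, extracted by the authors with Agilent Feature Extraction 10.7.3.1, per the file headers; deposited values are processed signal intensities, background-corrected per the file headers, with no normalization between arrays. The authors' deposited series table, whose scale is linear intensity, differed from the scanner values by at most 0.00497 of the value and served as an alternative. The submitters' processing notes also name limma, in a step not given in the sources used here. From the intensities, log2 signals minus each array's 75th percentile were computed here, without control spots and 2048 spots with outlier flags, and repeated spots of a probe were averaged. Of 41174 probes, 27896 were named through RefSeq accessions, 5451 by symbol and 370 by synonym, and 7457 kept the file's name. Coordinates are those of the probe in mm9, as the files give them. Probes well above background on every array of 1 or more of the groups were kept (30920 probes); the probe with the highest mean stood for each of 20532 genes.

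Differences, SEs and p-values come from limma 3.58.1 (R 4.3.3; lmFit, contrasts.fit, eBayes) with the means of all 10 groups, the 3 arrays of 1 weanling pool averaged, and Benjamini-Hochberg adjustment over all genes; figures were drawn with matplotlib 3.10.9. The fit was tested on simulated data. Where neither array of a group cleared background, "at least" folds compare the brighter group's mean with, on each dim array, the detection limit (its lowest signal with the flag) or the gene's signal, whichever is higher. These folds are lower bounds on the scale used here only. Scaling to the array median moves each wild-type difference by -0.58. Under it the folds of genes that lay higher are smaller, and that of Wnt9b, which lay lower, is larger. Replicate numbers did not pair the samples (correlation of same-number deviations -0.0493), and no label says more than that samples are separate litter pools. Members, gene lists, tests and alternatives were chosen with earlier results of these data known, and lists are described by counts and medians with no test. Genes named are the retinoid lists, the 12 smallest p-values each way among symbols above background on all 4 arrays with groups apart (in the fit of all groups and in that without 2 weanling arrays), up to 4 of each list by p, and up to 5 each way for the difference between genotypes; further list members named were chosen after their values were seen, and genes with no sure role were left out. Some list members are not reported here by name.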

Additional observations from a re-analysis of the deposited data

Results flagged for a closer look

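The diet difference of macrophage and Kupffer-like markers stood on opposite sides of 0 in the 2 genotypes at birth: the median was -0.31 in the wild type, where 14 of 15 lay lower, and 0.34 in the Cyp1b1-null, where all 15 lay higher. The wild-type median was -0.13 without deficient array 1, -0.19 without sufficient array 2 and -0.15 with quantile normalization. The list's median deviations were 0.04 and 0.12 on the wild-type sufficient arrays and -0.20 and -0.01 on the deficient ones, and 0.00 and -0.38 against 0.08 and 0.32 in the null. All 15 markers were well above background on the 4 wild-type arrays. The difference between the genotypes was not tested for the list; none of its genes had an unadjusted p under 0.05 in the test of the difference.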

How the results depend on the processing

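No gene was called for diet with normexp and quantile normalization, quantile normalization, scaling to the array median, or the mean of probes. The same held with no filter or a stricter one on dim probes, the authors' table, the 4 arrays alone, or the slide as a block. Genes at an unadjusted p under 0.05 (limma) in these settings went from 64, of 13048 tested with the stricter filter, to 2575 with the 4 arrays alone. The replicate block also called 0 (812 unadjusted). Settings that drop or weigh down weanling arrays called more: 206 with newborn arrays only, 629 without the 2 weanling arrays, 174 there with quantile normalization, and 267 with array weights. Chosen after seeing the data, on top of leaving out those 2 arrays, the mean of probes called 808, the array median 256, genes above background on all 4 arrays 0, and leaving out 1 wild-type array at a time 69 to 1493. For the difference from the null, the counts in the same order were 1, 10, 7 and 12, then 9, 2, 0 and 0 to 348, and 0 with the replicate block. The mean of probes turned Zfp532, with 1 probe below background on all 4 arrays and the other on 3, from -1.39 to 0.29, also without the 2 weanling arrays (0.29). Of 895 values compared, scaling to the array median moved 601 by more than the spread between replicates, normexp 208, quantile normalization 158 and the mean of probes 90. What these arrays limit is the dim end: signals under about -3.15 were mostly not well above background.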

Other observations

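Genes of hedgehog and Wnt signalling lay higher for 22 of 27 measured, with a median of 0.44 that turned to -0.13 with scaling to the array median and was 0.01 with quantile normalization. Ihh, a hedgehog ligand, gave -2.74 and -1.20 on the sufficient arrays and -0.74 and -0.92 on the deficient arrays, and Gli2, a hedgehog transcription factor, -3.77 and -3.29 against -1.08 and -2.79. Wnt9b, a Wnt ligand of liver endothelium, was well above background on both sufficient arrays (-2.17 and -2.68) and on neither deficient array (-3.38 and -3.71), and so at least 1.71-fold lower. Genes of TGF-beta and BMP signalling had a median of 0.12, or -0.45 with scaling to the array median. Within that list Tgfb3, a TGF-beta ligand, gave -0.07 and -0.24 against 0.71 and 0.69, and Id3, a target of BMP signalling, 1.73 and 1.69 against 1.22 and 1.12. Groups were apart for 9 above and 1 below of the 27 hedgehog and Wnt genes. They were apart for 5 above and 4 below of 25 measured genes of TGF-beta and BMP signalling. Of all genes tested, 25.7% were apart above and 14.5% below. The 5 genes given here were picked from these lists and had groups apart, and none was called.

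Acute phase and complement genes had a median of 0.07 (-0.50 with scaling to the array median) with groups apart for 7 below and 2 above. Hp, haptoglobin, gave 9.94 and 9.73 against 9.54 and 9.11, and Hpx, hemopexin, 8.99 and 8.70 against 8.51 and 8.13, lower on both deficient arrays. Saa3, a serum amyloid, went the other way with -2.38 and -1.60 against -1.55 and -0.25. The remaining marker lists had medians of 0.12 for haematopoietic progenitors and mast cells, 0.84 for bone and cartilage, 0.22 for intestine and stomach and -0.01 for skin. With scaling to the array median these were -0.46, 0.26, -0.36 and -0.59. The bone and cartilage median was 0.03 over members above background on all 4 arrays, 0.07 with quantile normalization and 0.04 without deficient array 2. The hedgehog and Wnt median was 0.13 over such members.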
